A study of Mus musculus with 8 samples.

Results

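Cyp26b1, Aldh1a1, Aldh1a2, Aldh1a3, Rarb and Rarres2 are 6 genes of retinoid metabolism and signalling out of the 31053 genes of the deposited tables, and they are described here in fibro/adipogenic progenitors (FAPs) of mouse muscle. Genes were taken by symbol. Cells were barcodes with at least 500 genes, at most 10% mitochondrial UMIs (unique molecular identifiers, each standing for 1 captured transcript) and at least 1 UMI of Pdgfra, the receptor used for the sort. This left 2968 of 3797 barcodes, 1435 from dysferlin knockout (KO) mice and 1533 from wild type (WT) mice. The genes were proposed with their KO and WT values already known, so every value below is a description and none was tested.

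The study compared FAPs of mice without dysferlin, a membrane repair protein of muscle whose loss causes a muscular dystrophy, with FAPs of C57BL/6 mice. Both groups were females aged 8 months, and live PDGFRα-positive cells were sorted from pooled hindlimb muscles that included the psoas and quadriceps. The labels and the protocol spell the strain of the KO mice differently, so it is given here as the dysferlin knockout only, and the background strain of the 2 groups may differ too. The labels list 4 samples per group, but each group was deposited as 1 pooled matrix without a map from cells to mice, so there is 1 library per group. Genotype, strain and the making of each library cannot be told apart, no difference has a replicate check, and all intervals are 95% intervals of counting error only.

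The KO library was deeper than the WT library, with 19170199 UMIs in the KO cells used and 14420247 UMIs in the WT cells, and medians of 12717 UMIs per KO cell and 9177 UMIs per WT cell. Of 10 FAP markers, 9 were found in at least 50% of the cells of each library. Dysf, which encodes dysferlin, gave 14 UMIs in KO cells and 9 UMIs in WT cells, so FAPs at this depth do not check the labels of the 2 libraries. The 6 macrophage and monocyte markers summed to 63.2 UMIs per 1000000 (counts per 1000000, CPM) in KO cells and 5.48 CPM in WT cells. Of the KO UMIs of these markers, 1047 came from the 2 KO cells of a single cluster, and leaving out the 5 KO cells with at least 3 of these markers moved no member's ratio beyond its interval. The 5 tenocyte markers summed to 976 CPM in KO cells and 598 CPM in WT cells, and their part in the results was not tested. The libraries shared 13 barcode sequences, 2 of them among the cells used.

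Retinoic acid is the active form of vitamin A. Retinol is first oxidised to retinal by retinol dehydrogenases such as Rdh10, and the retinal dehydrogenases encoded by Aldh1a1, Aldh1a2 and Aldh1a3 then make retinoic acid in an irreversible step. Cytochromes of the Cyp26 family oxidise retinoic acid and so remove it, and Cyp26b1 is the family member best known in mesenchyme. Retinoic acid binds the nuclear receptors Rara, Rarb and Rarg, which act with Rxr partners. Rarb is itself a textbook target of the receptors. Rarres2 encodes chemerin, a secreted chemoattractant and adipokine first found as a retinoid-responsive gene.

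The degrading enzyme Cyp26b1 and the synthesizing enzyme Aldh1a2 lay on opposite sides of the comparison. Cyp26b1 was 2.59-fold lower in KO than in WT cells, and Aldh1a2 was 3.24-fold higher. Aldh1a3 was also higher, Aldh1a1 and Rarb were lower, and Rarres2 differed little. At a size of 1.5-fold, 2 of the 6 genes were higher and 3 were lower in KO cells. Only 4 of the 6 reached the mean of 20 CPM used to describe genes, of which 1 was higher and 2 were lower. Over all 5933 genes at that level, 8.66% were at least 1.5-fold apart, 5.07% higher and 3.59% lower in KO cells. At 2-fold, 1 member was higher and 1 was lower, beside 2.78% of all described genes, 1.77% higher and 1.01% lower. The members were chosen from the same contrast, so their counts are not read against those shares. Their places in the order are given as description: 25 of the 5933 genes had a larger log2 ratio than Aldh1a2, and 23 had a smaller one than Cyp26b1.

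**Figure D1:**
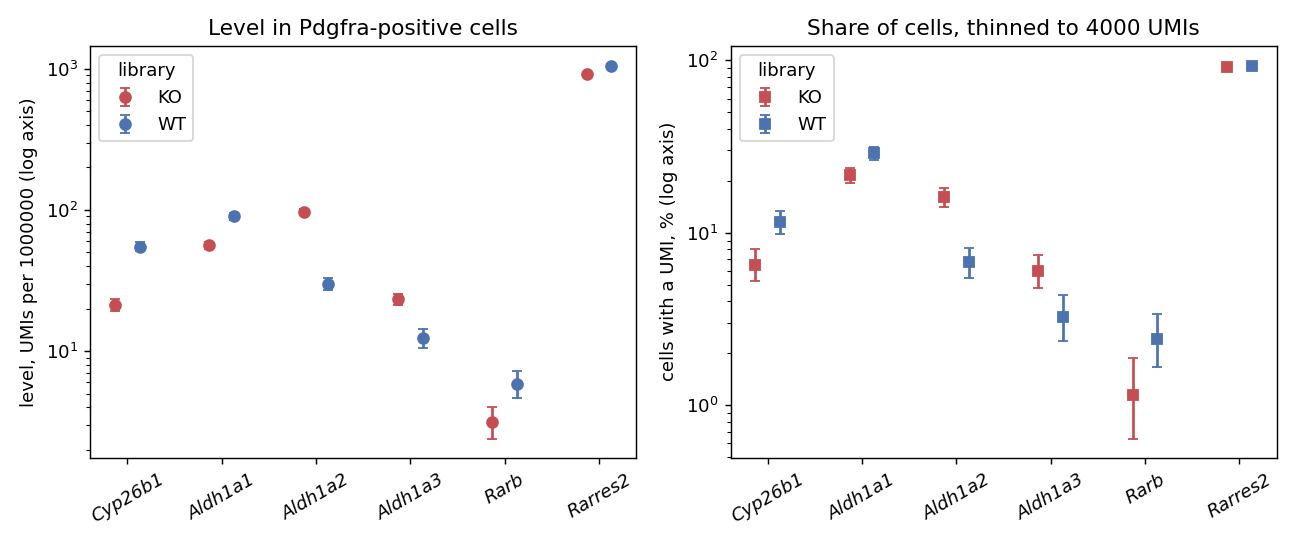
Level of each gene in UMIs per 1000000 over all Pdgfra-positive cells (left, log axis, bars are exact Poisson 95% intervals) and share of cells with a UMI after each cell was thinned to 4000 UMIs (right, log axis, bars are exact Clopper-Pearson 95% intervals), KO in red beside WT in blue, 1 library each. Cyp26b1 stood at 21.2 CPM in KO and 54.9 CPM in WT cells, Aldh1a2 at 97.1 CPM in KO and 30.0 CPM in WT cells, and the shares lay in the same direction as the levels for each gene.

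Cyp26b1 (ENSMUSG00000063415, chr6:84571414-84593908, minus strand, GRCm38) encodes the enzyme that clears retinoic acid. It had 407 UMIs in KO cells and 792 UMIs in WT cells. Its level was 21.2 CPM (19.2 to 23.4) in KO cells and 54.9 CPM (51.2 to 58.9) in WT cells, and the intervals did not overlap. The log2 ratio of KO over WT was -1.37 (-1.55 to -1.20). The other family members were almost silent, so Cyp26b1 stood for the whole family: Cyp26a1 had 3 UMIs in KO and 0 UMIs in WT cells, where a count of 0 allows up to 0.208 CPM, and Cyp26c1 had 0 UMIs in both. The promoter stretch of Cyp26b1 is shown because this gene and Aldh1a2 lay furthest apart. It is RefSeq sequence of GRCm38.p6, chr6:84593909-84594060 on the minus strand, 152 bases that end just before the gene's start in GENCODE M21, which lies 98 bases upstream of the RefSeq start. The capitals mark a TATAAA box, 41 to 36 bases before the GENCODE start, a motif that 13.6% of all 32851 RefSeq promoter windows hold on either strand.
Cyp26b1: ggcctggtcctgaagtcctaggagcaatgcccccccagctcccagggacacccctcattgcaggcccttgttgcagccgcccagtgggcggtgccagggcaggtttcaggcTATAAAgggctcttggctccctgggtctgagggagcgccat

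Aldh1a2 (ENSMUSG00000013584, chr9:71215789-71296243, plus strand), the main retinal dehydrogenase of embryonic mesoderm, ran the other way. It had 1862 UMIs in KO cells and 432 UMIs in WT cells. Its level was 97.1 CPM (92.8 to 102) in KO cells and 30.0 CPM (27.2 to 32.9) in WT cells, a log2 ratio of 1.70 (1.55 to 1.85). The 250 bases before its start, chr9:71215539-71215788 on the plus strand in GRCm38.p6 (RefSeq), are shown beside those of Cyp26b1 for contrast. G and C made up 77.6% of them, they held 40 CpG steps, and no TATAAA was found there, so no letters are in capitals.
Aldh1a2: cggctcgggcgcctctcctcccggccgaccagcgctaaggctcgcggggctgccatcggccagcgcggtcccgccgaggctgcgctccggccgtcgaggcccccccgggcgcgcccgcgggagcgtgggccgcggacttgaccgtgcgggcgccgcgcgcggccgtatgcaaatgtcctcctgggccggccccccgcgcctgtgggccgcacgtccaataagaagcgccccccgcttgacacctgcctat

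Aldh1a1 (ENSMUSG00000053279, chr19:20492715-20643465, plus strand), a cytosolic retinal dehydrogenase widely used as a progenitor cell marker, had 1079 UMIs in KO cells and 1299 UMIs in WT cells. Its level was 56.3 CPM (53.0 to 59.7) in KO cells and 90.1 CPM (85.2 to 95.1) in WT cells, a log2 ratio of -0.68 (-0.80 to -0.56). It was thus lower in KO cells while its paralog Aldh1a2 was higher. Of the 50-base stretches in the last 500 bases of its coding transcripts, 8.18% also occur in Aldh1a7, a close copy to which 0 UMIs were assigned in KO and 4 UMIs in WT cells.

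Aldh1a3 (ENSMUSG00000015134, chr7:66390890-66427517, minus strand), the third retinal dehydrogenase, was the least counted of the 3 in each library. It had 446 UMIs in KO cells and 178 UMIs in WT cells, or 23.3 CPM (21.2 to 25.5) in KO cells and 12.3 CPM (10.6 to 14.3) in WT cells. The log2 ratio was 0.91 (0.66 to 1.17), and the mean of 17.8 CPM was under the level of the described genes.

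Summed, the 3 Aldh1a genes gave 177 CPM in KO cells and 132 CPM in WT cells, a log2 ratio of 0.42 (0.34 to 0.50). The sum therefore differed less than its parts, and its makeup was turned round between the libraries. Counts are of transcript 3′ ends and do not scale with gene length, so shares of the sum can be set side by side. Aldh1a1 gave 31.9% of the Aldh1a UMIs in KO cells and 68.0% in WT cells. Aldh1a2 gave 55.0% in KO cells and 22.6% in WT cells, and Aldh1a3 gave 13.2% in KO cells and 9.32% in WT cells. The most counted retinal dehydrogenase was Aldh1a2 in the KO library and Aldh1a1 in the WT library.

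Rarb (ENSMUSG00000017491, chr14:16430839-16819156, minus strand), the retinoic acid receptor that is itself induced by its ligand, was rare. It had 60 UMIs in KO cells and 84 UMIs in WT cells, or 3.13 CPM (2.39 to 4.03) in KO cells and 5.83 CPM (4.65 to 7.21) in WT cells, a log2 ratio of -0.90 (-1.40 to -0.40). Its 3′ end overlaps that of Top2b on the opposite strand, which had 2202 UMIs in KO and 1397 UMIs in WT cells, and no source used here says whether the counting used strand. The gene is a target of its own receptor class through a direct repeat with 5 bases between the repeat units, and that element is printed because it makes Rarb a readout of retinoic acid in textbooks. Windows of 250 bases before to 50 bases after a RefSeq start were searched on both strands. A direct repeat with 5 bases between units of the AGGTCA type was found in 32 of the 32851 windows, or 0.0974%. Windows were given for 4 of the 6 genes, not for Aldh1a3 and Rarres2, and among these 4 genes the repeat was found in Rarb only. The degrading enzyme gene Cyp26a1, nearly silent here, carried one too. The capitals mark the repeat units. The Rarb element is at chr14:16575513-16575529, on the strand of the gene, 53 to 37 bases before the RefSeq start and inside exon 1 of 2 GENCODE transcripts. The Cyp26a1 element is at chr19:37697776-37697792, on the strand opposite to the gene, 32 to 16 bases before its start, and both are from GRCm38.p6.
Rarb: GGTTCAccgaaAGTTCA
Cyp26a1: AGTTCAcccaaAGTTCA
Repeats with 1 or 2 bases between the units were found in no window of the members. A match of letters is not a bound site.

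The receptors as a group differed less than Rarb. Summed, Rara, Rarb and Rarg gave 70.0 CPM in KO cells and 68.0 CPM in WT cells, with a log2 ratio of 0.04 (-0.08 to 0.16) whose interval held 0. Within the sum, Rara gave 50.2% of UMIs in KO cells and 28.0% in WT cells, and Rarg gave 45.3% in KO cells and 63.5% in WT cells. Rara, the broadly expressed receptor, had 35.1 CPM in KO cells and 19.0 CPM in WT cells, with a log2 ratio of 0.89 (0.68 to 1.09). Rarg had 31.7 CPM in KO cells and 43.1 CPM in WT cells, with a log2 ratio of -0.44 (-0.61 to -0.28).

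Rarres2 (ENSMUSG00000009281, chr6:48569696-48572789, minus strand) was found in nearly every FAP. It had 17652 UMIs in KO cells and 15200 UMIs in WT cells, or 921 CPM (907 to 934) in KO cells and 1054 CPM (1037 to 1071) in WT cells. The log2 ratio was -0.20 (-0.23 to -0.16), a difference of 1.14-fold. Its 3′ end overlaps Lrrc61 on the opposite strand, which had 39 UMIs in KO and 46 UMIs in WT cells. Of the chemerin receptors, Cmklr1 had 62.4 CPM in KO cells and 93.0 CPM in WT cells, a log2 ratio of -0.57 (-0.69 to -0.46). Gpr1 was rare, with 15 UMIs in KO cells and 51 UMIs in WT cells, and Ccrl2, which binds chemerin without signalling, had 70 UMIs in KO cells and 47 UMIs in WT cells.

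The differences were also seen in how many cells had a UMI. Cyp26b1 was found in 13.4% of KO cells (11.7 to 15.3) and 18.1% of WT cells (16.2 to 20.1), and Aldh1a2 in 24.7% of KO cells (22.5 to 27.0) and 9.46% of WT cells (8.04 to 11.0). Because the libraries differed in depth, each cell was thinned to 4000 UMIs, which left out 117 KO and 210 WT cells that were shallower. Thinned shares were 6.53% (5.25 to 8.00) of 1318 KO cells and 11.5% (9.82 to 13.3) of 1323 WT cells for Cyp26b1, and 16.1% (14.1 to 18.2) of KO and 6.73% (5.44 to 8.21) of WT cells for Aldh1a2. Neither pair of intervals overlapped. For Aldh1a1 the share was 43.9% of KO and 48.6% of WT cells before thinning, and 21.5% (19.4 to 23.9) of KO and 28.9% (26.4 to 31.4) of WT cells after it. For Aldh1a3 it was 12.1% of KO and 6.46% of WT cells before thinning, and 5.99% (4.77 to 7.41) of KO and 3.25% (2.36 to 4.35) of WT cells after it. The 2 remaining genes lay at the ends of the scale. Rarb was in 3.76% of KO and 5.09% of WT cells, or 1.14% (0.638 to 1.87) of KO and 2.42% (1.66 to 3.40) of WT cells after thinning, where the intervals overlapped. Rarres2 was in 96.0% of KO and 95.1% of WT cells, or 91.4% (89.8 to 92.9) of KO and 93.1% (91.6 to 94.4) of WT cells after thinning, also with overlap.

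Barcodes with no Pdgfra UMI and at least 3 endothelial markers can show what free RNA gives for a gene that they do not express. There were few, 5 in the KO library with a median of 3232 UMIs and 31 in the WT library with a median of 4411 UMIs. Aldh1a2 was in none of either set, which leaves shares of up to 52.2% for the KO set and 11.2% for the WT set. Both limits lie above its shares in FAPs, 24.7% of KO and 9.46% of WT cells. These sets therefore cannot show how much free Aldh1a2 RNA there was. Cyp26b1 was in 0 of 5 KO and 4 of 31 WT endothelial-marked barcodes, 12.9% (3.63 to 29.8), which is no lower than the 11.5% of WT FAPs at 4000 UMIs. These 4 barcodes held 8 Cyp26b1 UMIs, so the WT set stood at 40.1 CPM, beside 54.9 CPM in WT FAPs. Rarres2 stood at 65.1 CPM in that set and at 1054 CPM in WT FAPs. Whether free RNA or expression in these barcodes gave the Cyp26b1 UMIs was not tested. As a precaution, a single Cyp26b1 UMI in a cell is not read as expression. In WT barcodes marked as blood cells Cyp26b1 was in 0 of 8, which leaves shares of up to 36.9%. Between WT clusters of FAPs its level ran from 7.47 CPM (0.905 to 27.0, 2 UMIs in 27 cells) to 135 CPM (116 to 156), with intervals that did not overlap. Rarres2 was in 0 of 5 KO and 7 of 31 WT endothelial-marked barcodes, 22.6% (9.59 to 41.1), far under its share in FAPs. Aldh1a1 was in 0 KO and 2 WT barcodes of these sets, Aldh1a3 in 0 KO and 1 WT, and Rarb in 1 KO and 0 WT.

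UMIs of Aldh1a2 and Cyp26b1 were gathered in a minority of cells. At least 10 Aldh1a2 UMIs were found in 55 KO cells and 8 WT cells, with a highest count of 64 in a KO cell and 29 in a WT cell. The 5% of cells with the most Aldh1a2 held 62.4% of its UMIs in the KO library and 84.3% in the WT library. At least 5 Cyp26b1 UMIs were found in 18 KO cells and 50 WT cells, with a highest count of 17 in a KO cell and 38 in a WT cell. The high end of each gene lay in the library with the higher level, but both are read from the same UMIs. These counts of cells were made without thinning, and KO cells were deeper, with medians of 12717 UMIs in KO and 9177 UMIs in WT cells. Aldh1a1 was spread more evenly: the top 5% of cells held 27.2% of its UMIs in KO and 27.7% in WT cells. After thinning, the variance of Aldh1a1 over its mean was 1.08 in KO and 1.48 in WT cells, where pure counting gives 1. For Aldh1a2 it was 3.46 in KO and 2.37 in WT cells, and for Cyp26b1 2.31 in KO and 2.47 in WT cells.

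**Figure D2:**
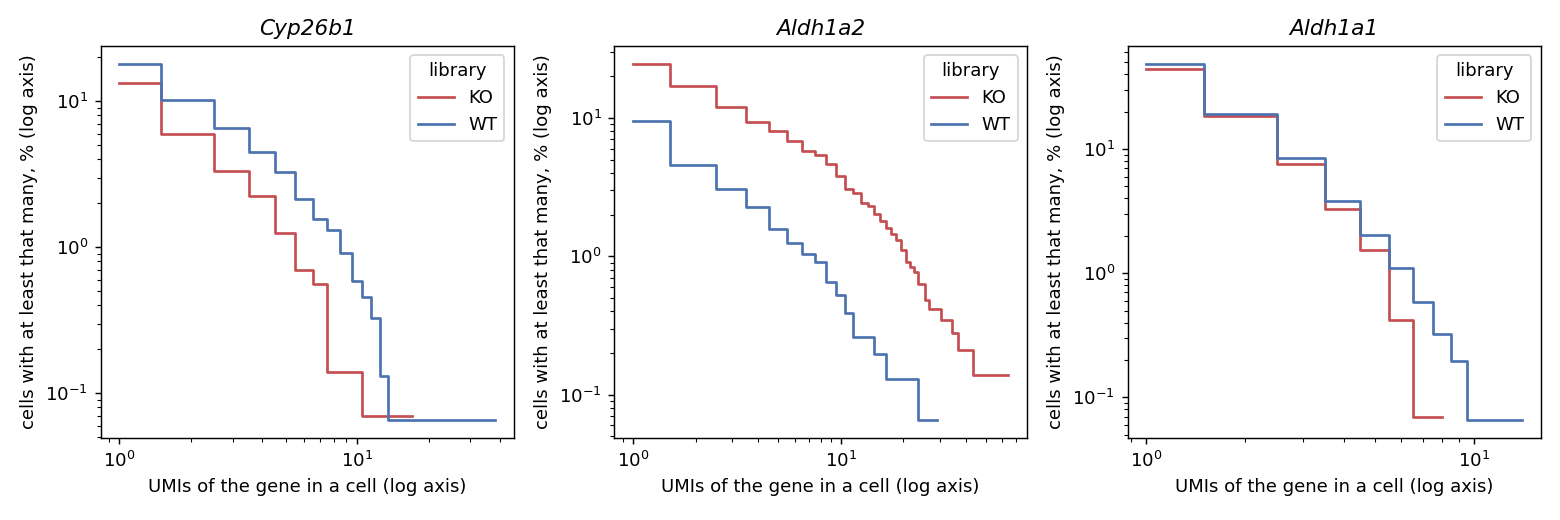
Share of cells (percent, log axis) with at least the number of UMIs on the horizontal axis (log axis), for Cyp26b1, Aldh1a2 and Aldh1a1, KO in red and WT in blue, without thinning. The Aldh1a2 curve of the KO library lies above that of the WT library along its length, reaching 55 KO and 8 WT cells at 10 UMIs, the Cyp26b1 curves lie the other way up to 10 UMIs, and the Aldh1a1 curves stay close.

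To see where in the FAP pool the genes were expressed, the cells of both libraries were clustered together without the members and the pathway genes. This gave 14 clusters, called here by number and leading genes. Different clusters held most cells of the 2 libraries: cluster 3, led by Mmp3, Cpxm1 and Sfrp1, held 652 KO and 34 WT cells, while cluster 0 (Hsd11b1, Nmb, Ces1d) held 95 KO and 326 WT cells and cluster 4 (Arl4d, Efhd1, 1700019D03Rik) held 81 KO and 327 WT cells. A cluster mostly of 1 library may be that library and not a type. Cluster 10, led by the mast cell protease genes Cma1 and Mcpt4 and the immunoglobulin gene Igkc, held 41 KO cells and 0 WT cells. Cluster 1, with 23 KO and 180 WT cells, was led by the stress response genes Atf3, Zfp36 and Socs3.

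Each enzyme had its own place among the 20 groups of cluster and library with at least 25 cells. Cyp26b1 was highest in WT cells of cluster 2, led by Apoe, Fst and Penk, with 135 CPM (186 UMIs in 172 cells), and in WT cells of cluster 12, led by Sfrp2, 1500015O10Rik and Dkk2, with 119 CPM. A single WT cell held 38 of the 186 UMIs in cluster 2, and without the highest cell of each group the 2 levels were 108 and 98.7 CPM, so the order of these 2 groups is not resolved. It was lowest in KO cells of cluster 6, led by Cxcl9, Ccl7 and Timp1, with 3.20 CPM (5 UMIs in 103 cells). Aldh1a2 had its highest level in that same group, 261 CPM (409 UMIs), followed by WT cells of cluster 11 (Mest, Apod, Capn6) with 116 CPM. In WT cells of cluster 12 Aldh1a2 had 0 UMIs, and the 24 KO cells of that cluster had 0 UMIs too. Cluster 11 had too few KO cells for the rule, but its 23 KO cells gave 108 Aldh1a2 UMIs, or 329 CPM. Cyp26b1 in cluster 11 stood at 12.2 CPM in KO and 15.2 CPM in WT cells. The next groups by Aldh1a2 level were KO cells of cluster 2 with 101 CPM and of cluster 7 with 95.7 CPM, and there Cyp26b1 stood at 74.4 and 75.6 CPM, above its median of 45.6 CPM over the 20 groups. High Aldh1a2 thus went with little Cyp26b1 in some clusters and not in others, with r of -0.42 and rho of -0.26 over the 20 groups.

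Aldh1a3 had its highest level in cluster 9, led by Smpd3, Cmah and Sema3c, with 109 CPM (256 UMIs in 172 cells) in KO cells and 74.7 CPM (20 UMIs in 27 cells) in WT cells. That cluster held 57.4% of the Aldh1a3 UMIs of the KO library and 11.2% of those of the WT library, where cluster 4 held 48.3% and cluster 1 held 18.0%. Of the 23 KO cells with at least 5 Aldh1a3 UMIs, 16 lay in cluster 9, and of 6 such WT cells, 2 lay there and 3 in cluster 4. Aldh1a1 was broad, between 20.1 CPM in KO cells of cluster 7 (Gdf10, Fmo2, Pltp) and 130 CPM in WT cells of cluster 0, and it was detected in all 20 groups. Rarb ranged between 1.39 CPM in KO cells of cluster 10 and 11.2 CPM in WT cells of cluster 9, where it had 3 UMIs. Rarres2 ranged between 509 CPM in KO cells of cluster 8 (Clu, Hmcn1, Vit) and 1688 CPM in WT cells of cluster 13 (Fabp4, Fmod, Gpx1).

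**Figure D3:**
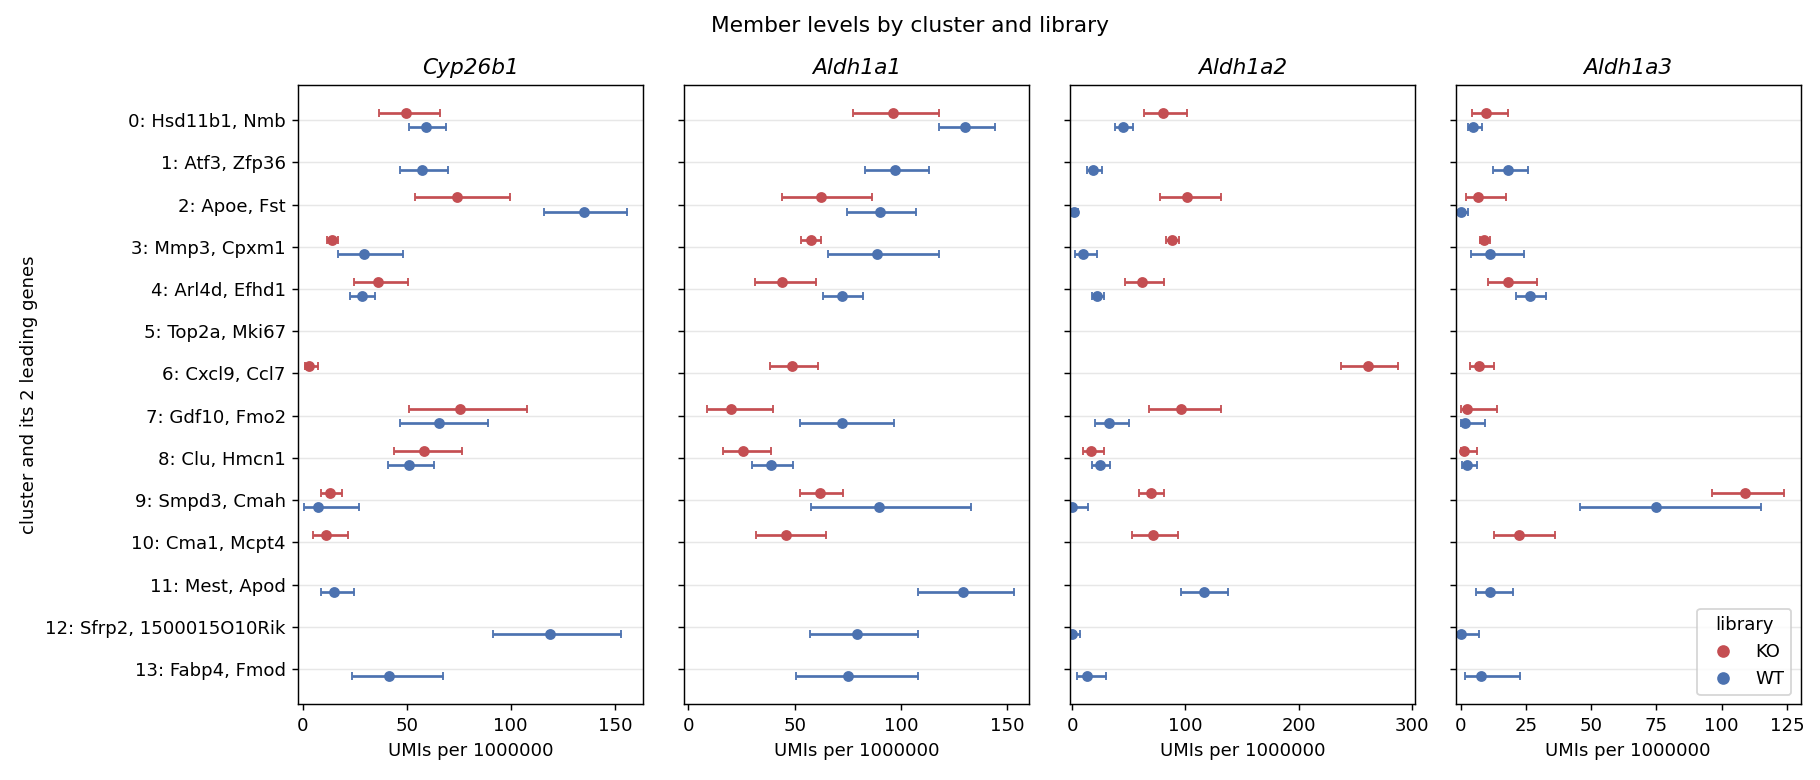
Level of 4 enzyme genes in UMIs per 1000000 (horizontal axes) by cluster, named by its 2 leading genes, with KO (red) above WT (blue), for groups of at least 25 cells, and exact Poisson 95% intervals. Cyp26b1 is highest in WT cells of clusters 2 and 12 (135 and 119 CPM, with intervals that overlap), Aldh1a2 in KO cells of cluster 6 (261 CPM) and Aldh1a3 in cluster 9 of both libraries (109 CPM in KO and 74.7 CPM in WT cells).

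Within clusters the genes parted ways. Of the 14 clusters, 7 had at least 25 cells of each library, 1200 KO and 1183 WT cells in all. Aldh1a2 was higher in KO cells in 6 of the 7, in each with an interval above 0, and the median log2 ratio was 1.55. In cluster 2 it had 60 UMIs in 63 KO cells and 2 UMIs in 172 WT cells, and in cluster 9 it had 163 UMIs in KO cells and 0 UMIs in WT cells. With the WT count set to a floor of 3, it was 6.21-fold higher in KO cells of cluster 9. The exact interval of that log2 ratio starts lower, at 2.32. Single cells carried part of this. In cluster 4, 1 KO cell held 36 of the 55 KO UMIs, and without the highest cell of each library the level there was 22.2 CPM in KO and 17.4 CPM in WT cells, a log2 ratio of 0.35 (-0.48 to 1.13). In cluster 2 the 60 UMIs lay in 9 of the 63 KO cells. With the highest cell of each library left out of every cluster, an alternative chosen after seeing the data, 6 of 7 clusters were above 0, 5 of them with the interval, and the median was 1.39. The exception was cluster 8, with 16.9 CPM in KO and 24.4 CPM in WT cells and a log2 ratio of -0.53 (-1.49 to 0.35). The size of the Aldh1a2 difference within clusters depended on how finely the cells were split: with clusters at resolution 1.2 in place of 0.8, 6 of 8 clusters with a value were above 0 and the median was 0.47, and at resolution 0.4, 5 of 5 were above 0 with a median of 1.45.

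Aldh1a1 was lower in KO cells in 7 of the 7 clusters, in 4 with an interval below 0, with log2 ratios of -1.84 to -0.43 and a median of -0.58, close to the -0.68 over all cells. It was also below 0 in 6 of 6 shared clusters at resolution 0.4 and in 9 of 9 at resolution 1.2. In cluster 0 it had 96.4 CPM in KO cells and 130 CPM in WT cells, and in cluster 4 it had 44.0 CPM in KO cells and 72.4 CPM in WT cells. No other of the 6 genes had the same sign in each of the 7 clusters.

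Cyp26b1 did not keep its direction within clusters. Its log2 ratio was above 0 in 4 of the 7 shared clusters and below 0 in 3, with a median of 0.19 against -1.37 over all cells. Of the 7 intervals, 2 lay below 0: cluster 2 had 74.4 CPM in KO and 135 CPM in WT cells, and cluster 3 had 14.2 CPM in KO and 29.6 CPM in WT cells. In cluster 3, 1 WT cell held 10 of the 16 WT UMIs, and without the highest cell of each library the levels were 12.5 CPM in KO and 11.5 CPM in WT cells. In cluster 0 it had 49.8 CPM in KO cells and 59.5 CPM in WT cells, and in cluster 4 36.1 CPM in KO cells and 28.4 CPM in WT cells, both with intervals of the ratio that held 0. At resolution 0.4 it was below 0 in 5 of 6 shared clusters with a median of -0.40, and at resolution 1.2 in 8 of 9 with a median of -0.05. Without clusters 3, 6, 9 and 10, most of whose cells were KO, its log2 ratio was -0.33. Of the clusters mostly of KO cells, Cyp26b1 was at 14.2 CPM in cluster 3 and 3.20 CPM in cluster 6, which held 45.4% and 7.18% of KO cells.

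Weighting the cluster levels by the other library's makeup gives a second view for the 7 shared clusters, though clusters mostly of 1 library keep makeup and library from being told apart. Cyp26b1 averaged 23.9 CPM for KO levels at KO makeup and 48.9 CPM for KO levels at WT makeup. WT levels gave 34.2 CPM at KO makeup and 56.0 CPM at WT makeup. At either makeup the KO value of Cyp26b1 was below the WT value. Within either library the value at KO makeup was below that at WT makeup. Cluster 3, with 652 of the 1200 KO cells of these clusters, weighs most at KO makeup. Its WT level of 29.6 CPM came from 16 UMIs, 10 of them in 1 cell. Without the highest cell of each library, cluster 3 stood at 12.5 CPM in KO and 11.5 CPM in WT cells. The weighting was not repeated without these cells, so whether the KO and WT values differ at KO makeup is not resolved. For Aldh1a2 the order was otherwise, with 80.2 CPM for KO levels at KO makeup, 68.6 CPM for KO levels at WT makeup, 11.9 CPM for WT levels at KO makeup and 25.6 CPM for WT levels at WT makeup. For Aldh1a1 the makeup moved the value little: KO levels gave 57.2 CPM at KO makeup and 57.7 CPM at WT makeup, and WT levels gave 87.3 CPM at KO makeup and 86.5 CPM at WT makeup.

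Rarb had too few UMIs for its clusters to be read, with 7 of 7 intervals that held 0 and a median of -0.69. Rarres2 lay between -0.29 and 0.07 in the 7 clusters, with a median of -0.03. Aldh1a3 was above 0 in 4 of the 7 clusters and below 0 in 3, with a median of 0.55. Its 1 interval above 0 was that of cluster 2, which rested on 4 KO UMIs and 0 WT UMIs.

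**Figure D4:**
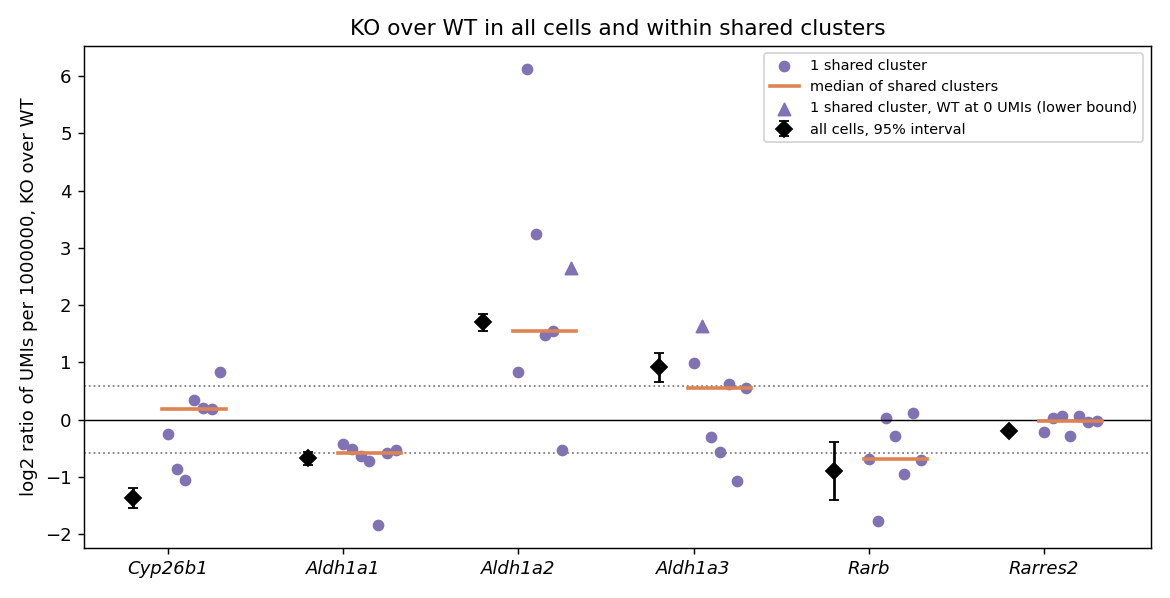
Log2 ratio of KO over WT for each gene over all cells (black, exact 95% interval of counting error) and in each of the 7 shared clusters (purple, triangles are lower bounds where the WT cells had 0 UMIs), with their median in orange and dotted lines at 1.5-fold. Aldh1a2 stays above 0 in 6 of 7 clusters and Aldh1a1 below 0 in 7 of 7, while Cyp26b1 lies at -1.37 over all cells and at a median of 0.19 within clusters.

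Co-expression was read after thinning, as the number of cells with both genes beside the number that the shares of the 2 genes alone would give. Cells with Cyp26b1 and Aldh1a3 were few: 2 KO cells against 5.15 from the shares, and 1 WT cell against 4.94. Cyp26b1 and Aldh1a2 were found together in 11 KO cells against 13.8, a ratio of 0.795 (0.397 to 1.42), and in 4 WT cells against 10.2, a ratio of 0.391 (0.107 to 1.00). The counts were small and the thinned intervals reached 1. Without thinning, Cyp26b1 and Aldh1a3 met in 13 KO cells against 23.1, a ratio of 0.562 (0.299 to 0.960), and in 5 WT cells against 17.9, a ratio of 0.280 (0.0908 to 0.652). Both intervals lay below 1, while deeper cells raise every pair. When the number from the shares was worked out within clusters, it was 21.1 KO and 13.4 WT cells. Since 1 UMI of Cyp26b1 is not read as expression, cells with at least 2 were also counted, without thinning and after seeing the data. Of these, 5 of 86 KO cells had Aldh1a3 against 10.4, a ratio of 0.482 (0.157 to 1.13), and 2 of 157 WT cells against 10.1, a ratio of 0.197 (0.0239 to 0.713). With Aldh1a2 the ratios were 0.754 (0.431 to 1.22) in KO and 0.808 (0.418 to 1.41) in WT cells. The interval lay below 1 for Aldh1a3 in WT cells and held 1 in the other 3 cases. Cyp26b1 and Aldh1a1 met as often as their shares give, in 15 KO cells against 18.5 and 43 WT cells against 43.9.

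Most cells with a retinal dehydrogenase had 1 of the 3 after thinning. At least 1 Aldh1a gene was found in 38.0% (35.4 to 40.7) of KO cells and 36.0% (33.4 to 38.6) of WT cells, so that share was close in the 2 libraries. Exactly 2 were found in 5.46% (4.30 to 6.83) of KO cells and 2.87% (2.04 to 3.92) of WT cells. Aldh1a2 and Aldh1a3 met in 68 KO cells against 42.7 without thinning, a ratio of 1.59 (1.24 to 2.02), but in 11 KO cells against 12.7 after it, so this excess was not found at equal depth.

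Over the 20 groups of cluster and library, each gene was set against all genes with a mean of at least 20 CPM by the Pearson correlation of log2(CPM + 10), as a description, since groups of 1 library share depth and preparation. The patterns most like Cyp26b1 were those of Spock2 (r of 0.87), a proteoglycan, and Penk (0.84), the enkephalin precursor that also leads cluster 2, then Sqstm1, Gsn and Bnip3. Spock2 had 29.5 CPM in KO cells and 63.3 CPM in WT cells, and Penk had 68.5 CPM in KO cells and 117 CPM in WT cells. For Aldh1a3 they were Zyx (0.89), which encodes the focal adhesion protein zyxin, Aif1l, Gnpnat1, Gas7 and Cmah. Rarb had too few UMIs per group for such a list. Golga3 (0.80), Sf3b3, Igsf8, Alg5 and Blmh were most like Aldh1a2, all genes of 39.2 to 70.2 CPM. Cyb5a (0.78), Egfr, Armcx2, Dcun1d3 and Trf were most like Aldh1a1, and Mgst1 (0.81), Htra1, Rack1, Cyb561 and Rps15 were most like Rarres2. Between the members, the strongest relation was that of Cyp26b1 and Aldh1a3, with r of -0.66 and rho of -0.77. Aldh1a3 was at or near the floor in several of these groups, so this relation and its list rest partly on such values. It had 0 UMIs in WT cells of clusters 2 and 12 and 1 UMI in each library in cluster 7.

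The rest of the retinoid pathway was read from a list of 58 genes, of which 57 were in the tables, 5 had no UMI and 25 reached 20 CPM. Of these 25, 4 were at least 1.5-fold higher and 2 lower in KO cells, and the median log2 ratio was 0.02, beside 0.05 over all 5933 described genes. The shares of all described genes past that size are 5.07% higher and 3.59% lower, as above. With median-of-ratios size factors 3 were higher and 3 lower, since the log2 ratio of Rai1 was then 0.57 and that of Cmklr1 -0.62, on either side of the size. The list as a whole was thus centred where all genes were.

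Among retinoid carriers, Rbp4, the plasma retinol carrier, had 30.8 CPM in KO cells and 59.7 CPM in WT cells, a log2 ratio of -0.96 (-1.11 to -0.80). Stra6, the retinol uptake receptor, had 0 UMIs in KO cells and 16 UMIs in WT cells, those 16 in 7 cells, so it was rare in both libraries. Crabp1 and Crabp2, the cellular retinoic acid-binding proteins, were rare and lay opposite ways, with 2 UMIs in KO and 17 UMIs in WT cells for Crabp1 and 33 UMIs in KO and 8 UMIs in WT cells for Crabp2.

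None of the 7 described genes of retinol and retinal oxidation and reduction was 1.5-fold apart. Adh1 had 128 CPM in KO cells and 117 CPM in WT cells, Dhrs7 had 102 CPM in KO cells and 122 CPM in WT cells, and Dhrs3, which turns retinal back to retinol, had 67.2 CPM in KO cells and 71.6 CPM in WT cells. Rdh10, which makes the retinal that the Aldh1a enzymes use, was under the level of the described genes at a mean of 16.7 CPM. It had 21.2 CPM in KO cells and 12.2 CPM in WT cells, with a log2 ratio of 0.80 (0.54 to 1.06). Adh7 and Aox3, of the same role and also at low levels, lay the other way: Adh7 had 5.01 CPM in KO cells and 9.22 CPM in WT cells, and Aox3 had 4.80 CPM in KO cells and 9.02 CPM in WT cells. The oxidising enzymes thus had no common direction.

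Of the 6 coregulators, 1 was past the size, Ncoa3, a nuclear receptor coactivator, with 31.4 CPM in KO cells and 49.3 CPM in WT cells. Of 6 described genes listed as targets, 3 were at least 1.5-fold higher and 0 lower. Over all 5933 described genes, 5.07% were higher and 3.59% lower by that size, or 8.66% either way. The lists were chosen with earlier results of these data known, so neither the coregulator nor the target count is read against these shares. Hic1, a transcription factor gene known as a marker of mesenchymal progenitors, had 95.4 CPM in KO cells and 57.6 CPM in WT cells, a log2 ratio of 0.73 (0.61 to 0.85). Rai14 had 29.9 CPM in KO cells and 16.6 CPM in WT cells, and Rai1 had 29.3 CPM in KO cells and 19.1 CPM in WT cells. Tgm2, a transglutaminase gene induced by retinoic acid in several cell types, had 31.1 CPM in KO cells and 22.3 CPM in WT cells and did not reach the size. Bhlhe40 and Gprc5b had log2 ratios of 0.07 and 0.13, with intervals that held 0. All 6 ratios were above 0, with a median of 0.55 beside 0.05 over all described genes. Rarb, a known target that is not on this list, was lower in KO cells, as given above.

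**Figure D5:**
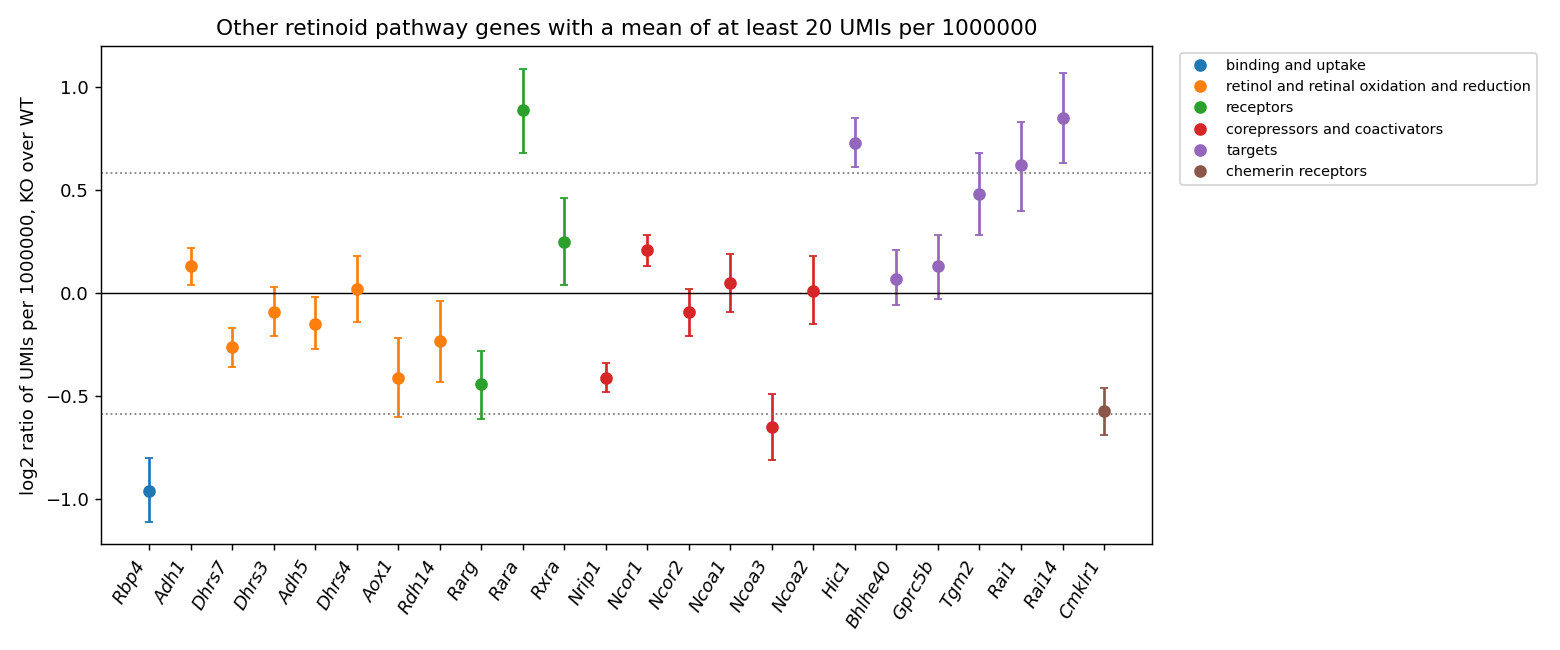
Log2 ratio of KO over WT (vertical axis, exact 95% intervals of counting error) for all but 1 of the 25 listed retinoid pathway genes with a mean of at least 20 UMIs per 1000000, ordered by role, with dotted lines at 1.5-fold. Rara, Hic1, Rai14 and Rai1 lie above the upper line and Rbp4 and Ncoa3 below the lower one.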

How the data were processed

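The droplet libraries used the 10x 3′ kit, version 3, per the labels' protocols, which aimed at around 8000 cells; the matrices hold 1724 KO and 2073 WT barcodes. The authors deposited raw UMI counts, 1 matrix of genes by barcodes per group. The submitters' processing notes name Cell Ranger 3.0.0, Seurat and mm10, and the file headers give software version 3.0.2. How empty droplets were told from cells is not given in the sources used.

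The members and all lists were chosen with earlier results of these data known. UMIs were summed over cells and divided by the library total (CPM). Sums have exact Poisson intervals, ratios exact conditional binomial intervals and shares exact Clopper-Pearson intervals, checked on simulated counts. A count of 0 was taken to allow 3 counts, 0.156 CPM in KO and 0.208 CPM in WT cells. Genes were described where their mean reached 20 CPM, and 1.5-fold was the size criterion. Cells were clustered with scanpy 1.11.5 without integration: 10000 per cell, log, 2000 variable genes asked for, of which 1983 were used after the member and pathway genes were left out, 30 components, 15 neighbours, Leiden resolution 0.8. Scrublet called 7 KO and 2 WT doublets, which were kept; the sort had gated doublets out by pulse width. Named genes are the 6 members, pathway genes past the size and up to 3 of each role by level, the 5 most alike genes of each member and the 3 leading genes of clusters. Of these, 1 pathway gene is not reported here, and the genes alike to Rarb are left out for its few UMIs. Adh7, Aox3, Crabp1, Crabp2, Stra6, Rdh10, Gpr1, Ccrl2 and Tgm2 were named after their values were seen. Positions are from GENCODE M21 (GRCm38) and promoter windows from RefSeq (GRCm38.p6). Python 3.11.15, numpy 2.4.6 and scipy 1.17.1 were used.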

Additional observations from a re-analysis of the deposited data

How the results depend on the processing

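Over 16 alternatives each, the log2 ratio of KO over WT kept its sign for Aldh1a1 (-0.72 to -0.48), Aldh1a2 (0.47 to 1.77) and Aldh1a3 (0.46 to 1.15). It also kept its sign for Rarb (-0.95 to -0.28, the upper end from a median that includes bounds) and Rarres2 (-0.26 to -0.01). It did not for Cyp26b1 (-1.52 to 0.19). Cell filters, the Pdgfra requirement, removal of doublets and another scaling moved no enzyme's ratio beyond its interval. As the median over shared clusters the ratio of Cyp26b1 was 0.19, of Aldh1a3 0.55 and of Rarres2 -0.03. Alternatives chosen after seeing the data follow. At resolution 0.4 this median was -0.40 for Cyp26b1, -0.52 for Aldh1a1, 1.45 for Aldh1a2, -0.35 for Rarb and -0.01 for Rarres2, and at resolution 1.2 it was -0.05 for Cyp26b1, -0.48 for Aldh1a1, 0.47 for Aldh1a2 and -0.09 for Rarres2. Without the highest cell of each library in each cluster it was 0.12 for Cyp26b1, 1.39 for Aldh1a2, 0.65 for Aldh1a3, -0.28 for Rarb and -0.04 for Rarres2. For Rarb the KO cells of clusters 0 and 2 and the WT cells of cluster 3 then had 0 UMIs. Their values were bounds against the floor of 3 counts, so this median of Rarb is not read. Without clusters 3, 6, 9 and 10 the ratio was -0.33 for Cyp26b1, 1.33 for Aldh1a2, 0.46 for Aldh1a3 and -0.26 for Rarres2, and without cluster 10 it was -0.24 for Rarres2. Of the alternatives set out at the start, the mean over cells gave -1.18 for Cyp26b1 and median-of-ratios size factors gave -0.24 for Rarres2, with a shift of 0.05 over all genes. The cause of these moves was not tested. At 2-fold, 2 of the 6 members were apart in place of 5, 1 higher and 1 lower in KO cells. Over all genes 514 were 1.5-fold apart at a mean CPM of 20, 1059 at a mean CPM of 5 and 4218 with 1 UMI in each library, since more low genes enter. Without thinning, the share of cells was 15.2 percentage points higher in KO than in WT cells for Aldh1a2, against 9.36 with it, and 5.60 points higher for Aldh1a3, against 2.74. Of 30 pair-by-library values of co-expression, 1 moved without thinning, that of Aldh1a2 and Aldh1a3 in KO cells. By rank correlation, 3, 3, 2, 1 and 4 of the 5 most alike genes were shared for Cyp26b1, Aldh1a1, Aldh1a2, Aldh1a3 and Rarres2.

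No paired analysis was possible because each group was deposited as 1 pooled matrix, so the replicate numbers of the labels belong to no column of the data. Leaving out a replicate in turn could not be done for the same reason. The floors of 0.156 CPM in KO and 0.208 CPM in WT cells limit what can be said of Rarb, Cyp26a1, Stra6 and the other rare genes by cluster.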
